A study of Mus musculus with 40 samples.

Results

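Livers of mice that had first eaten the porphyrin-raising compound DDC (3,5-diethoxycarbonyl-1,4-dihydrocollidine) were compared with livers of mice that had not, averaged over the second treatment that followed. The comparison takes a mean of 3 differences, weighted by the fit: DDC+Cont minus Control 28D, DDC+HFD minus HFD, and DDC+EtOH minus EtOH. It uses 32 of the 40 libraries of the series, 17 with DDC history and 15 without, chosen by their label groups alone. All were livers of adult male C57BL/6 mice, taken as separate animals because each label carries its own number. The first treatment was a diet labelled BD or DDC (0.05% w/w), and the second was BD, HFD or HFD with ethanol, abbreviations that the labels do not spell out. The groups were Control 28D (BD then BD, n = 5), HFD (BD then HFD, n = 6), EtOH (BD then HFD with ethanol, n = 4), DDC+Cont (DDC then BD, n = 5), DDC+HFD (DDC then HFD, n = 6) and DDC+EtOH (DDC then HFD with ethanol, n = 6). Ethanol was infused through a gastric tube, with a daily dose of up to 27 g per kg and a course of up to 28 days. The labels do not give the length of DDC feeding, whether DDC was withdrawn before the second treatment, or the interval to tissue collection, so DDC history here means that DDC is the first treatment on the label. The other 8 libraries, Control 0D and DDC 0D (n = 4 each), had no second treatment and were used only to set the difference with DDC history beside the one at 0D.

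DDC blocks the last step of heme synthesis, so that protoporphyrin builds up, plugs small bile ducts and injures the cells around them. The liver answers with a ductular reaction (a spread of small, bile duct-like epithelial cells), with scar matrix laid down by portal fibroblasts and hepatic stellate cells, and with recruited macrophages. Hepatocytes meanwhile turn down part of their mature program, including genes that are higher in male than in female liver under growth hormone.

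Each library held between 7249760 and 26398061 gene reads (median 13653500). Levels are given as CPM, reads scaled to a common library total, which are not corrected for gene length, so levels are compared only within a gene. A log2 fold change (± SE) is the history coefficient of an additive model with second treatment as a term. Each was tested two-sided by edgeR's quasi-likelihood test, and p-values were adjusted by Benjamini-Hochberg over 14031 genes. A gene counts as called at an adjusted p under 0.05, and p-values measure the spread between these samples. The tissue carried its label: albumin (Alb) had a median of 42818 CPM without and 36090.3 CPM with DDC history. In whole tissue, a change in the number of cells of a type and a change in RNA per cell cannot be told apart. TMM scaling factors were 0.932 to 1.04 without and 0.907 to 1.13 with history, and multi-mapped reads were 22.8% to 28.7% of a library without and 20.1% to 26.7% with it. The part of these measures in the results was not tested.

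With DDC history 1751 genes were higher (12.5% of those tested) and 1553 lower (11.1%), 23.5% in all. The increases were the larger changes: the median log2 fold change was 0.59 over genes called higher and -0.23 over genes called lower, and 375 were more than 2-fold higher against 67 more than 2-fold lower. The same sign held in all 3 second treatments for 1671 of the higher and 1471 of the lower genes. The calls rest on the average of these same 3 differences, so this agreement is in part built in and is no independent support. Of the called genes, 1568 passed in no second treatment taken alone. Without the HFD groups 745 genes were higher and 297 lower, without the ethanol groups 1078 and 823, without the control-diet groups 1664 and 1441, and without DDC+HFD replicates 32, 33 and 35, 1190 and 957. Genes called lower were the more abundant: their median mean level was 55.7 CPM without history, against 3.00 CPM for genes called higher and 14.0 CPM for all tested.

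In 33 genes (0.235% of those tested), the lowest of the 17 libraries with history lay above the highest of the 15 without, and 0 genes (0%) were separated in the other direction. This set was read off after its values were seen. It held epithelial and ductular genes (Epcam, Bicc1, Ehf, St14, Mmp7, Itgb8), genes of stellate cells and portal fibroblasts (Pdgfrb, Cygb, Cd34, Gdf10), matrix genes (Col6a3, Lama2, Fbn2, Svep1) and the fractalkine gene Cx3cl1. Of these 33, 32 were also called higher at 0D, beside 27.5% of all genes there. Choosing genes without overlap also sets their libraries apart within each second treatment, so calls there follow largely from the choice. Such calls were made in each of the 3 second treatments for 30 of the 33, beside 109 of all 14031 genes. The exception at 0D was Ncr1, the natural killer cell receptor NKp46.

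**Figure D1:**
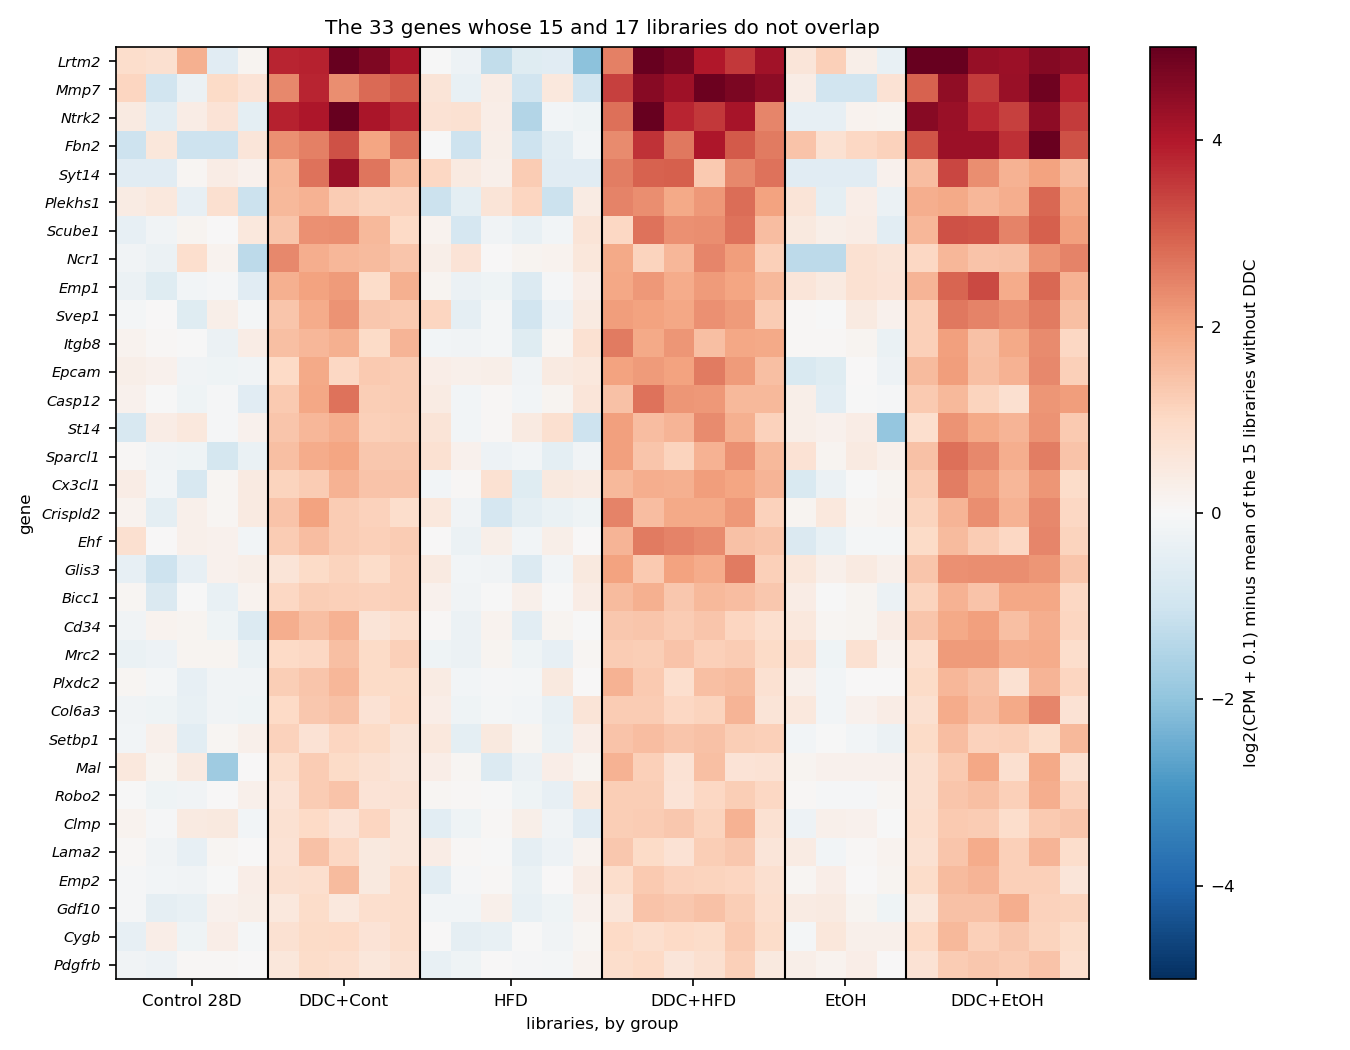
Each row is 1 of the 33 genes whose libraries with and without DDC history do not overlap, and each column 1 of 32 libraries, ordered by group. Colour gives log2(CPM + 0.1) minus the mean of the 15 libraries without DDC; red blocks mark the 3 groups with DDC history, strongest in Lrtm2, Mmp7, Ntrk2 and Fbn2.

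Ductular genes were among those whose libraries did not overlap. Epcam, an adhesion molecule of bile duct and progenitor epithelium (chromosome 17, 87635979 to 87651129, GENCODE vM21 on mm10), lay between 0.532 and 1.41 CPM without history (median 0.968) and between 2.01 and 6.24 CPM with it (median 3.48). The lowest library with history was above the highest without, and the log2 fold change was 1.86 ± 0.14 (adjusted p = 4.23e-11). Bicc1, an RNA-binding protein of duct and tubule epithelium, ran from 1.93 to 4.26 CPM (median 3.24) without and from 6.72 to 12.7 CPM (median 8.55) with history. Its libraries did not overlap either, and its log2 fold change of 1.44 ± 0.097 had the smallest adjusted p of the list (4.57e-12). Mmp7, matrilysin, a protease of injured duct epithelium (chromosome 9, 7692090 to 7699585), was at or below 0.302 CPM in the 15 libraries without history and between 0.876 and 5.66 CPM in the 17 with it. Its log2 fold change was 4.50 ± 0.35, or 22.7-fold. Spp1, osteopontin, overlapped between second treatments but not within any: its range was 41.8 to 80.1 CPM without and 66.6 to 190.1 CPM with history, a log2 fold change of 1.21 ± 0.12.

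Of 19 bile duct markers tested, 16 were called higher and 0 lower, a median log2 fold change of 1.39, against 12.5% higher and a median of -0.0035 over all genes. The list's summed level was 98.4 to 148.7 CPM (median 117.1) in the libraries without history and 164.0 to 369.4 CPM (median 236.3) in those with it, so that it did not overlap. The chloride channel Cftr rose 5.02-fold, the keratin Krt19 2.17-fold and the keratin Krt7 1.63-fold, the calls of both keratins being lost without the HFD groups (adjusted p = 0.0545 and 0.137) and that of Krt7 also without DDC+HFD replicates 32, 33 and 35 (0.0734). In contrast, Sox9, a transcription factor of duct and progenitor cells, had a log2 fold change of 0.31 ± 0.17 (adjusted p = 0.199; called without HFD replicate 19, 0.0478). Call counts in each second treatment alone were 7 (DDC+Cont), 14 (DDC+HFD) and 12 (DDC+EtOH), beside backgrounds of 1.01%, 6.97% and 3.46% of genes called higher.

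**Figure D2:**
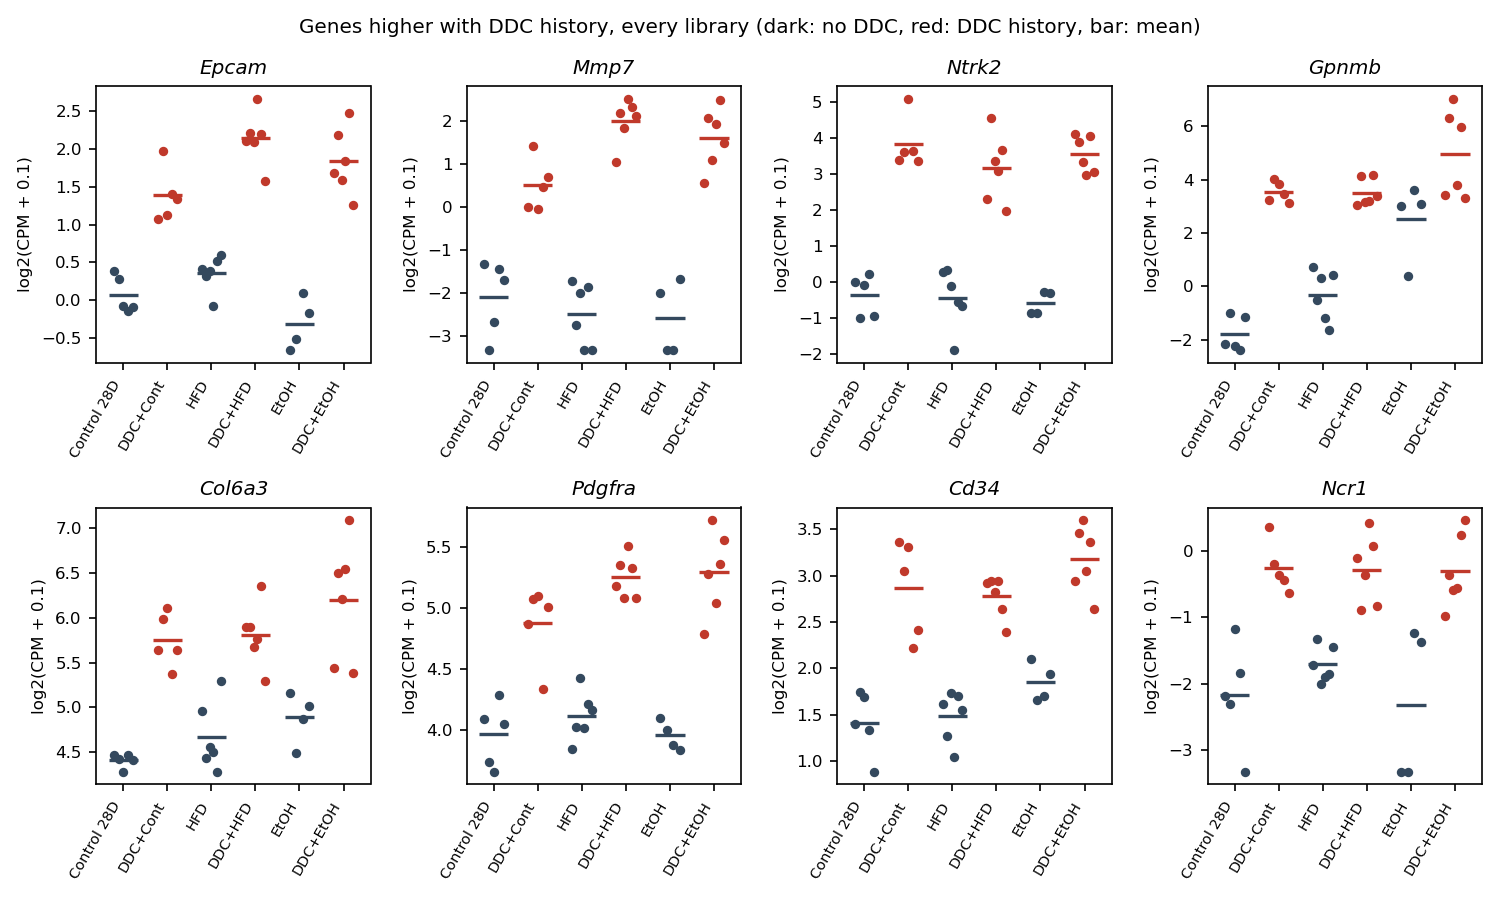
log2(CPM + 0.1) of 8 genes in every library, by group; dark points are libraries without DDC, red points libraries with DDC history and bars the group means. In Epcam, Mmp7, Ntrk2, Col6a3, Cd34 and Ncr1 every red point lies above every dark point, while Gpnmb in the EtOH group reached 12.2 CPM, above the lowest library with history.

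Membrane proteins with no overlap included a neurotrophin receptor. Ntrk2, the receptor TrkB for brain-derived neurotrophic factor (chromosome 13, 58806569 to 59133970), was 0.170 to 1.15 CPM without history (median 0.719) and 3.87 to 34.1 CPM with it (median 10.5). No library of either set reached into the other, and the log2 fold change was 4.17 ± 0.28 (18.0-fold, adjusted p = 9.03e-12). It stood at 4.40 in DDC+Cont, 3.80 in DDC+HFD and 4.41 in DDC+EtOH. Its value at 0D was 5.53, and the difference between the history and the 0D effect did not pass the test (-1.32 ± 0.63, adjusted p = 0.0982). Lrtm2, a leucine-rich repeat membrane protein, was 0 to 1.31 CPM without and 2.28 to 24.8 CPM with history, a log2 fold change of 4.59 ± 0.34. Emp1, an epithelial membrane protein that falls outside the rule for named genes and was picked after its values were seen, rose 4.18-fold (1.53 to 4.36 CPM without, 4.83 to 26.2 CPM with history).

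Most matrix genes were higher. Of 32 interstitial matrix genes, 26 were higher and 1 lower, against 12.5% and 11.1% of all genes. Their median log2 fold change was 0.72 beside 2.36 at 0D. The list's summed level overlapped, at 1693.6 to 3183.9 CPM without history (median 2085.7) and 1970.4 to 3629.0 CPM with it (median 2777.5). In DDC+Cont, DDC+HFD and DDC+EtOH alone 6, 12 and 15 were called higher, beside 1.01%, 6.97% and 3.46% of all genes. Col6a3, a chain of microfibrillar collagen VI (chromosome 1, 90765923 to 90843971), was 19.4 to 39.2 CPM without history (median 22.5) and 39.2 to 135.9 CPM with it (median 59.3). The ranges met without overlapping, and the log2 fold change was 1.29 ± 0.14 (adjusted p = 4.55e-08). The proteoglycan lumican (Lum) was 2.67-fold higher and thrombospondin 2 (Thbs2) 2.07-fold. The main fibrillar collagens rose with wider scatter: Col1a1 was 1.87 to 11.4 CPM without and 3.06 to 27.7 CPM with history (log2 fold change 1.20 ± 0.28), and Col3a1 stood at 0.73 ± 0.17, neither being called in a second treatment alone or without the control-diet groups (adjusted p = 0.0502 and 0.0654). The member called lower was periostin (Postn), a matricellular protein of activated fibroblasts, at -0.38 ± 0.11 (adjusted p = 0.0128), although it was 1.53 higher at 0D. That call was lost without the 7 libraries rich in pancreatic transcripts (adjusted p = 0.0758), without the HFD groups (0.228) and without the ethanol groups (0.0542).

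Basement membrane genes leaned higher: 15 of 18 lay above 0 and 1 was called lower, beside 12.5% of all genes called higher and 11.1% lower. Of 18, 8 were higher, among them the laminin chain Lama2 (4.58 to 8.29 CPM without and 8.95 to 23.1 CPM with history, no overlap, log2 fold change 1.09 ± 0.11). The laminin chain Lama3 was called lower (-0.56 ± 0.15), a call lost without the HFD groups (adjusted p = 0.0580). Fbn2, the microfibril protein fibrillin-2 and no member of the basement membrane list, was at most 0.456 CPM without history and at least 0.710 CPM with it (log2 fold change 3.79 ± 0.32).

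Of 17 stellate cell and myofibroblast markers, 10 were higher and 1 lower, against 12.5% and 11.1% of all genes. Their median log2 fold change was 0.34. Pdgfra, the alpha receptor of platelet-derived growth factor, was 12.5 to 21.3 CPM without history (median 16.2) and 20.0 to 52.6 CPM with it (median 34.2). Only the edges of these ranges crossed, the groups of each second treatment did not overlap, and the log2 fold change was 1.14 ± 0.089. Pdgfrb, the beta receptor, rose 1.86-fold and Cygb, the globin of stellate cells, 2.01-fold, with no overlap in either. The contractile marker Acta2 stood at 0.42 ± 0.24 (adjusted p = 0.207) and Lrat, the retinol-storing enzyme of resting stellate cells, at -0.11 ± 0.089 (adjusted p = 0.383). The tropomyosin Tpm2 was lower (-0.61 ± 0.17, lost without the HFD groups, adjusted p = 0.206, and without DDC+HFD replicates 32, 33 and 35, adjusted p = 0.0547). Of 9 mesothelial and portal fibroblast markers, 6 were higher and 0 lower. Cd34, a sialomucin of portal fibroblasts and vessels, was 1.74 to 4.18 CPM without and 4.54 to 12.0 CPM with history, a log2 fold change of 1.41 ± 0.12.

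Markers of recruited macrophages were higher, while few markers of resident Kupffer cells were called. Of 17 markers of recruited and lipid-laden macrophages, 16 were higher and 0 lower (median log2 fold change 1.22, 3.70 at 0D). Their summed level overlapped, at 89.0 to 218.9 CPM without history (median 148.0) and 148.5 to 799.4 CPM with it (median 241.5). Of 12 Kupffer cell markers 1 was higher, Il18bp (lost without the HFD groups, adjusted p = 0.190), and 0 lower (median 0.13). That is 8.3% higher, near the 12.5% of all genes. At 0D the Kupffer list had a median of 0.78, with 6 higher and 1 lower, beside 27.5% and 24.5% of all genes there. The history effect was below that at 0D by the test in 6 Kupffer markers and above it in 1, beside 19.6% and 16.8% of all genes. Gpnmb, a glycoprotein of lipid-laden macrophages (chromosome 6, 49036546 to 49070929), ran from 0.0898 to 12.2 CPM without history (median 0.601) and from 8.24 to 132.1 CPM with it (median 11.1), a log2 fold change of 3.65 ± 0.43. Its overlap came from the EtOH group, which lay between 1.20 and 12.2 CPM. Control 28D stayed at or below 0.407 CPM against at least 8.56 CPM in DDC+Cont, and HFD at or below 1.54 CPM against at least 8.24 CPM in DDC+HFD. Trem2, a lipid-sensing receptor, rose 4.23-fold, the fractalkine receptor Cx3cr1 2.73-fold and its ligand Cx3cl1 3.49-fold. Ccl2, the chemokine that draws monocytes, stood at 0.05 ± 0.26 (adjusted p = 0.916), beside 4.81 at 0D, and the difference of -4.74 ± 0.56 passed the test (adjusted p = 4.33e-08).

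These 3 promoters are shown because their genes moved in the groups just described and because their windows hold a short motif named below. They were picked after the windows had been searched. The AP-1 motif (TGANTCA, identical on both strands) is in capitals in Gpnmb and Mmp7, and the TEAD motif (GGAATG, both strands) in Ankrd1, a target gene of the growth regulator YAP. Sequences are from RefSeq (GRCm38.p6), 250 bases before to 50 after the start, on the gene's strand, at chr6:49036268-49036567 (plus), chr9:7691840-7692139 (plus) and chr19:36119795-36120094 (minus).
Gpnmb: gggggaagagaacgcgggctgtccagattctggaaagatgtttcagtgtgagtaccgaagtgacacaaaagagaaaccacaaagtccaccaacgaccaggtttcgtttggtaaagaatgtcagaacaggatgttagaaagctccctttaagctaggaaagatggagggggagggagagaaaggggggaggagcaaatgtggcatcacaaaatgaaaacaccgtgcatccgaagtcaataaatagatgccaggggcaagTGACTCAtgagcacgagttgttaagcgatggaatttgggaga
Mmp7: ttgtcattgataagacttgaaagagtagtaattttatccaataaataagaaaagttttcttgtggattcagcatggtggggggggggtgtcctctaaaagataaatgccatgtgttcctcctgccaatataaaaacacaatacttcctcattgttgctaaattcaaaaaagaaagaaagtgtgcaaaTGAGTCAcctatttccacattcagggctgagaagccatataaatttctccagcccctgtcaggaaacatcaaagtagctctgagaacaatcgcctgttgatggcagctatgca
Ankrd1: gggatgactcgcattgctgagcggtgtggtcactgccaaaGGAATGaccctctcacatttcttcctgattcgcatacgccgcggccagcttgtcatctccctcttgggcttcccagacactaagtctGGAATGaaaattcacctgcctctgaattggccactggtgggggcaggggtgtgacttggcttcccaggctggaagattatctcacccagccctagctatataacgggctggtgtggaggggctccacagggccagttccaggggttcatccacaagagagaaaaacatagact
In Gpnmb the motif starts at base 259 of the window, in Mmp7 at base 188, and in Ankrd1 at bases 41 and 128. TGANTCA was found in 5.56% of the 13579 promoters of tested genes (10713 genes matched), 7.18% of 1686 promoters of genes called higher and 6.28% of 1498 of genes called lower. For GGAATG the shares were 12.5%, 14.9% and 11.7%, and for the E-box CACGTG 9.56%, 7.47% and 8.28%. These are descriptions of letters with no test. Ankrd1 itself was 0.0719 to 0.544 CPM without and 0.426 to 2.29 CPM with history (log2 fold change 1.46 ± 0.23). Of 12 YAP targets 6 were higher and 0 lower, beside 12.5% and 11.1% of all genes. The higher ones included the factor Tead1 (0.62 ± 0.10) and the receptor kinase Axl (0.41 ± 0.066).

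Lymphoid and antigen-presenting genes were higher in part, beside 12.5% of all genes called higher and 11.1% lower. Ncr1 was 0 to 0.341 CPM without history (median 0.178) and 0.407 to 1.28 CPM with it (median 0.676), so that the libraries did not overlap at this low level, and its log2 fold change was 2.07 ± 0.29 (adjusted p = 3.36e-06). Its value at 0D was 0.63 (adjusted p = 0.461), and the difference of 1.49 ± 0.78 did not pass the test (adjusted p = 0.135). Of 13 T and NK cell markers, 8 were higher and 0 lower (median 0.88), among them the granzymes Gzmb (2.82-fold) and Gzma (3.07-fold). Of 11 MHC class II and dendritic cell genes, 9 were higher and 0 lower: H2-DMb1, a chaperone of peptide loading, stood at 0.68 ± 0.11 and the class II chain H2-Aa at 0.78 ± 0.14. Of 8 B and plasma cell markers, 0 were called.

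Neutrophil granule genes were a special case. Of 12 markers 9 were higher and 0 lower (median log2 fold change 2.05), beside 12.5% and 11.1% of all genes. The medians by second treatment were 1.17 in DDC+Cont, 3.45 in DDC+HFD and 0.42 in DDC+EtOH, but the interaction test called none of these markers. Their summed level was 12.2 to 65.6 CPM without history (median 27.7) and had a median of 39.1 CPM with it, with 747 CPM in DDC+HFD replicate 32, 1094 CPM in replicate 33, 396 CPM in replicate 35 and 240.2 CPM in replicate 37. Mpo, myeloperoxidase, stood at 2.90 ± 0.69 and the antimicrobial peptide gene Camp at 2.99 ± 0.73. Without DDC+HFD replicates 32, 33 and 35 these calls were lost (adjusted p = 0.0755 and 0.110), and 2 of the 12 markers were still called. Those were the collagenase Mmp8, at 2.47 ± 0.48 in all libraries and 1.54 without the 3 (adjusted p = 0.00947), and the resistin-like Retnlg, at 2.02 ± 0.50 and 1.13 (adjusted p = 0.0406). Without the HFD groups Retnlg lost its call (adjusted p = 0.214), while Mmp8 was called under each of 47 other settings. Chil4, a chitinase-like protein with the largest fitted value, was at 0 in 14 of the 15 libraries without history and in 10 of the 17 with it, with 51.4 CPM in DDC+HFD replicate 32 and 10.0 CPM in DDC+EtOH replicate 39. Its call was lost when the 3 second treatments were given equal weight (adjusted p = 0.148), and it has a close copy in Chil3.

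**Figure D3:**
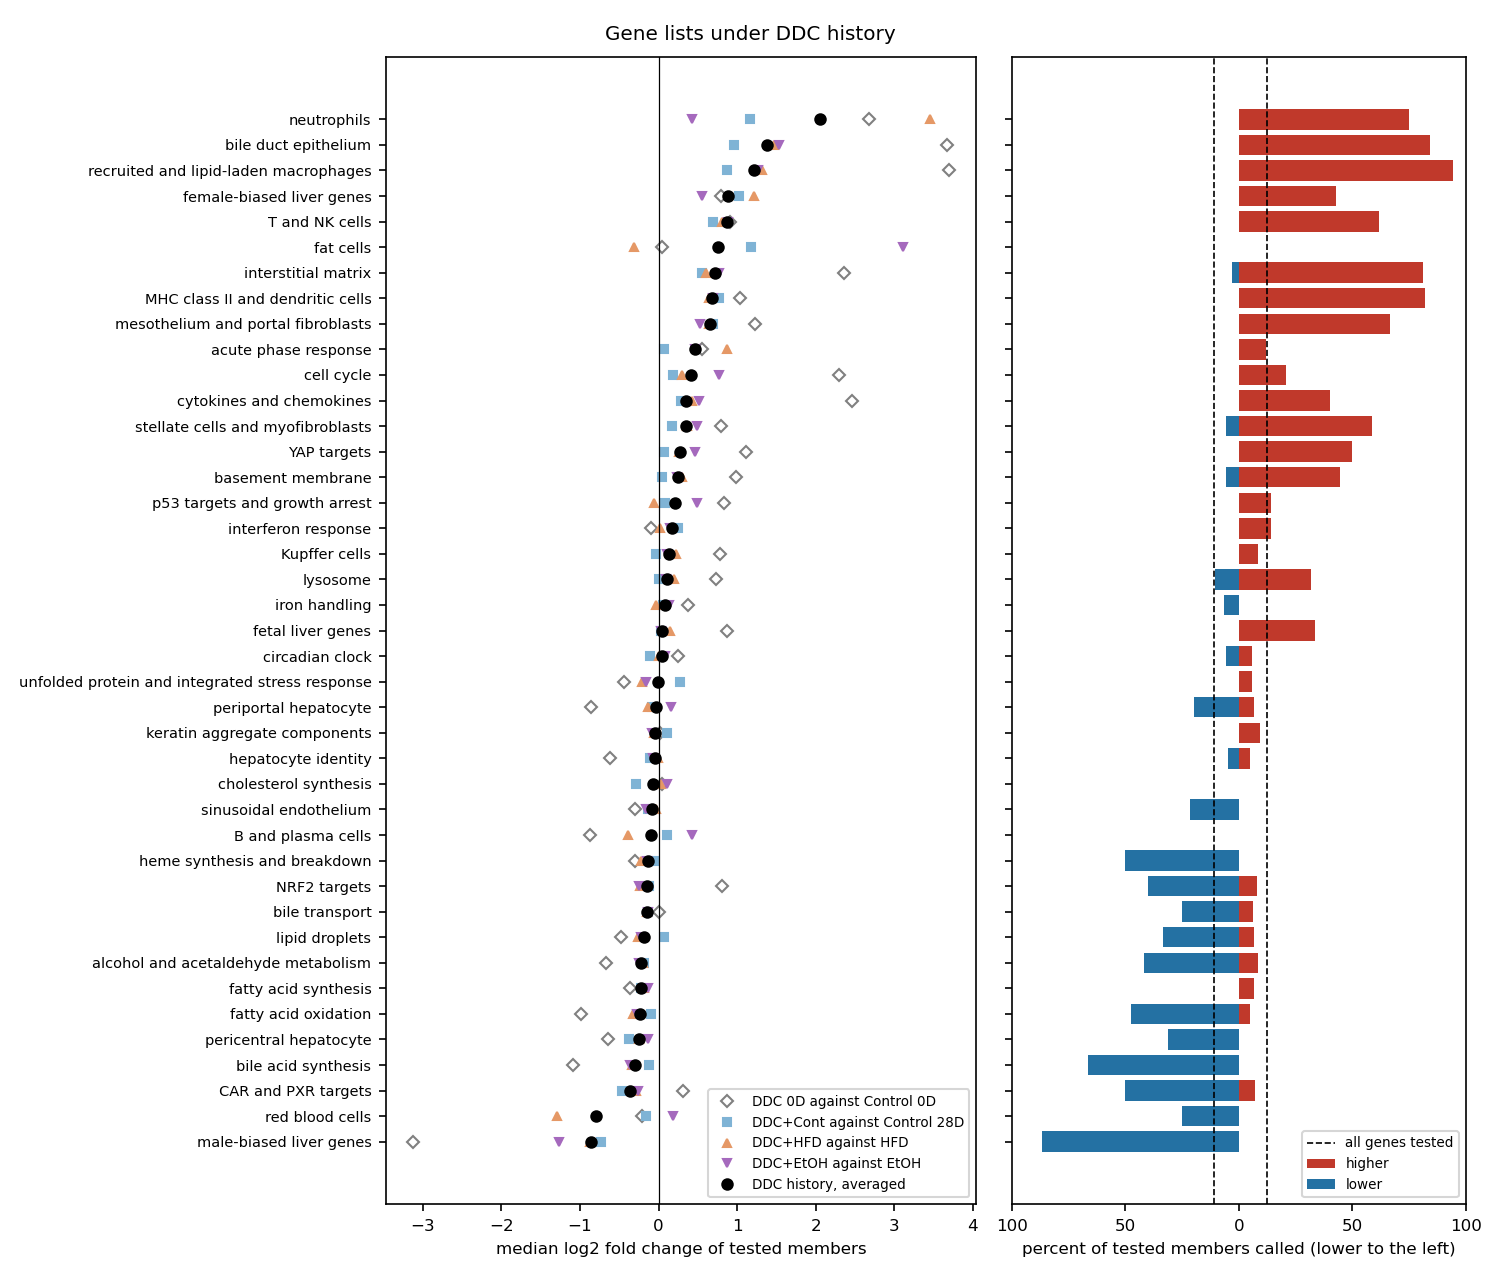
Left, median log2 fold change of the tested members of 41 gene lists for DDC history averaged (black), in each second treatment (coloured) and at 0D (open diamonds). Right, percent of members called higher (red) or lower (blue), with dashed lines at 12.5% and 11.1% for all genes; bile duct, recruited macrophage and MHC class II lists lie far to the right, male-biased liver genes far to the left. Pancreatic markers are left out.

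Cytokine and cell cycle genes were mostly nearer to the level without DDC than at 0D. Of 20 cytokines and chemokines, 8 were higher and 0 lower, and the median of 0.35 stood beside 2.46 at 0D. The effect was below that at 0D by the test in 15 and above it in 0, beside 19.6% and 16.8% of all genes. Cxcl5, a neutrophil-attracting chemokine, was 1.43 ± 0.40 against 9.39 at 0D, a call lost without the control-diet groups (adjusted p = 0.0529), without the ethanol groups (0.0773) and without DDC+HFD replicates 32, 33 and 35 (0.0737). The adhesion molecule Vcam1 was 0.78 ± 0.11 against 3.37. Of 24 cell cycle genes, 5 were higher and 0 lower, with a median of 0.42 against 2.29 at 0D. In 18 the effect was below that at 0D by the test and in 1 above it. Cyclin D1 (Ccnd1) stood at 0.78 ± 0.17, while the calls of Foxm1 and Top2a were lost under 28 and 19 of 47 other settings. Of 21 interferon response genes, 3 were higher and 0 lower, with a median of 0.18 beside -0.10 at 0D. Of 17 acute phase genes, 2 were higher and 0 lower, with a median of 0.47 beside 0.56 at 0D. All 17 were above 0. In 4 the effect was below that at 0D by the test and in 2 above it, near the 19.6% and 16.8% of all genes. The acute phase medians were 0.07 in DDC+Cont, 0.87 in DDC+HFD and 0.46 in DDC+EtOH. Of the 2 called, Apcs lost its call under 27 of 47 other settings. The shares of calls in the interferon and acute phase lists were near the background of 12.5%. Pancreatic acinar transcripts were over 1000 CPM in 7 libraries, 6 of them with DDC history, and the list had 0 of 8 calls. Reg2, a pancreatic acinar gene, was called (3.79 ± 1.14) but lost its call without DDC+HFD replicate 30 (adjusted p = 0.0652), without the ethanol groups (0.109), without the control-diet groups (0.0550) and with equal weights (0.158).

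Male-biased liver genes were lower. Of 15, 13 were lower and 0 higher (median log2 fold change -0.87, background 11.1% lower). At 0D 14 were lower, with a median of -3.13, beside 24.5% of all genes called lower there. Hsd3b5, a steroid dehydrogenase of male liver (chromosome 3, 98618634 to 98630252), ran from 133.2 to 249.0 CPM in Control 28D, above the 18.7 to 142.8 CPM of DDC+Cont but for an overlap at the edge. It was 82.4 to 198.8 CPM in HFD and 0.658 to 80.7 CPM in DDC+HFD, and at most 0.902 CPM in EtOH and 1.15 CPM in DDC+EtOH. The HFD groups alone did not overlap, and the averaged log2 fold change was -1.95 ± 0.44 (adjusted p = 0.00174). Elovl3, an elongase of very long fatty acids, lay between 577 and 732 CPM in Control 28D, with 214.9 to 615 CPM in DDC+Cont, 461 to 968 CPM in HFD and 12.6 to 450.0 CPM in DDC+HFD, and 48.1 to 200.2 CPM in EtOH and 0.645 to 22.0 CPM in DDC+EtOH. Libraries overlapped in the control pair alone, and the log2 fold change was -1.81 ± 0.42, a call lost without the ethanol groups (adjusted p = 0.0679). The organic anion carrier Slco1a1 stood at -1.43 ± 0.28 and Cyp4a12a, a fatty acid hydroxylase with a near-identical copy, at -1.44 ± 0.37, the latter call being lost without the HFD groups (adjusted p = 0.0631) and without the ethanol groups (0.0938). Of 14 female-biased genes, 6 were higher and 0 lower (median 0.89), beside 12.5% of all genes called higher. The estrogen sulfotransferase Sult1e1 rose 6.29-fold, from 0.0884 to 1.82 CPM (median 0.380) to between 0.444 and 13.3 CPM (median 1.70), with overlap, and the steroid hydroxylase Cyp17a1 rose 2.70-fold (adjusted p = 0.0523 without the ethanol groups).

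Trhde, the peptidase that inactivates thyrotropin-releasing hormone (chromosome 10, 114398823 to 114802307), was lower in each second treatment. It was 0.380 to 7.89 CPM without history (median 5.12) and 0.0851 to 2.66 CPM with it (median 0.472), a log2 fold change of -2.63 ± 0.25 (6.17-fold lower, adjusted p = 2.12e-09). The overlap came from the EtOH group, which itself lay between 0.380 and 2.66 CPM. The effect was -2.43 in DDC+Cont, -2.65 in DDC+HFD and -2.97 in DDC+EtOH, and 8 genes in all were called lower in each of the 3 second treatments, among them Trhde and the complement regulator Susd4 (-1.47 ± 0.19). Dct, dopachrome tautomerase, a melanin enzyme, was lower by 1.80 on the log2 scale.

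**Figure D4:**
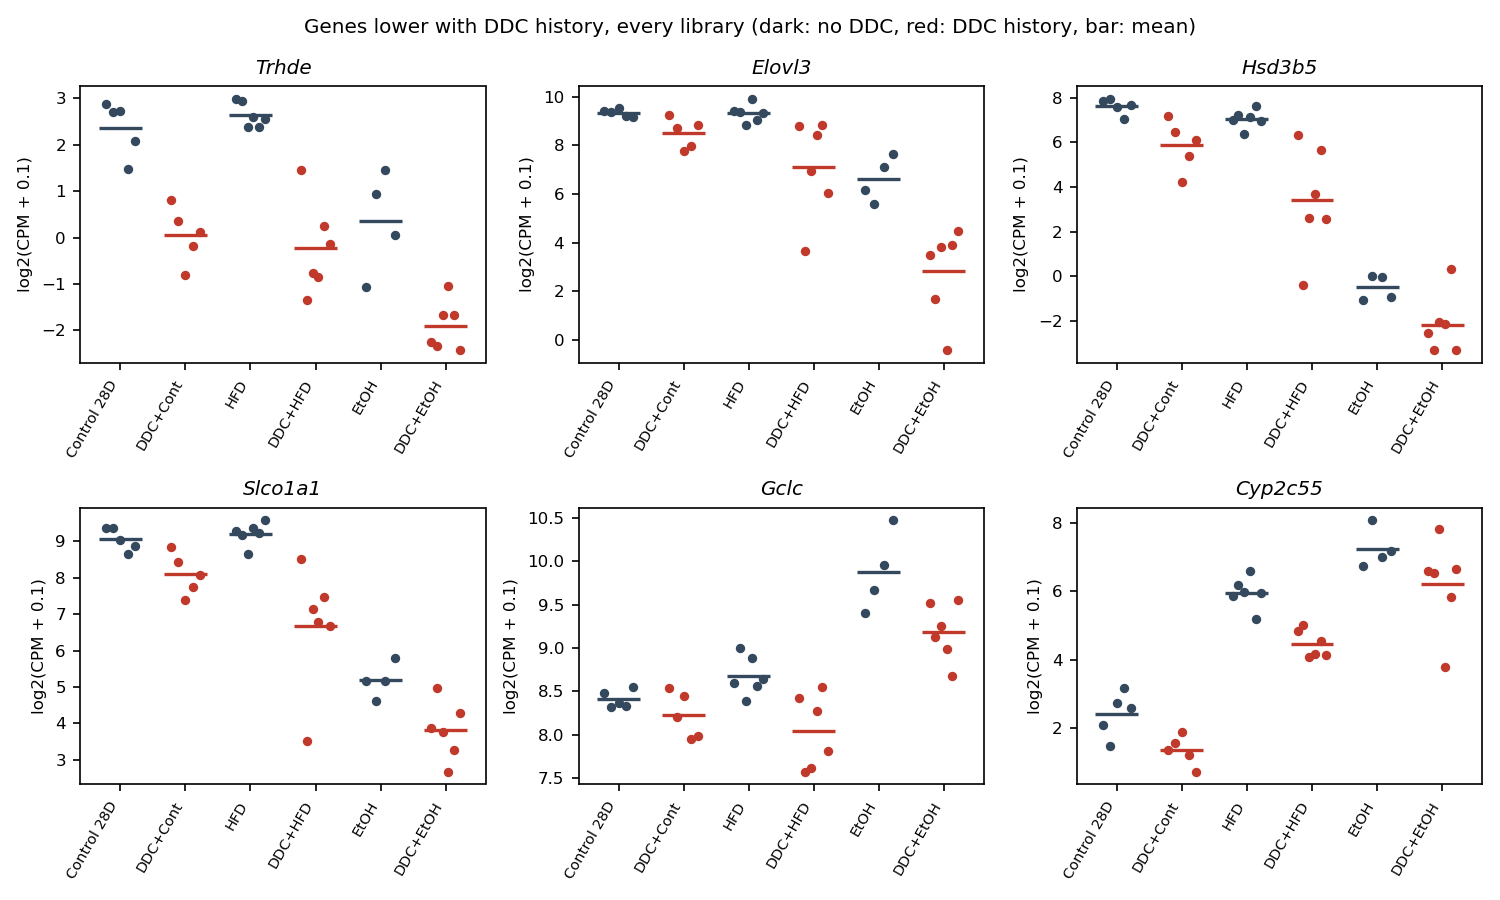
log2(CPM + 0.1) of 6 genes in every library, by group; dark points are libraries without DDC, red points libraries with DDC history and bars the group means. Trhde, Elovl3, Hsd3b5 and Slco1a1 were already low in the EtOH group, whereas Gclc and Cyp2c55 were highest there, and in each pair the red bar lies below the dark one.

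Detoxification genes that were higher at 0D were in part lower here. At 0D 18 of 25 NRF2 targets, the genes of the oxidant sensor NRF2, were higher and 1 lower. Over all genes 27.5% were higher and 24.5% lower at 0D, against 12.5% and 11.1% with DDC history. With DDC history 2 NRF2 targets were higher and 10 lower (median log2 fold change -0.15 beside 0.81 at 0D). The difference between both effects passed the test in 18, all toward lower values. Over all genes it passed toward lower values in 19.6% and toward higher values in 16.8%. In DDC+Cont, DDC+HFD and DDC+EtOH alone, 0, 5 and 2 of the 25 were called lower, beside 0.192%, 4.98% and 1.92% of all genes. Gclc, the catalytic subunit of the enzyme that limits glutathione synthesis, had medians of 328.7 CPM (Control 28D) and 294.3 CPM (DDC+Cont), 393 CPM in HFD and 267.1 CPM in DDC+HFD, and 908 CPM in EtOH and 585 CPM in DDC+EtOH. Libraries overlapped in each pair, and the averaged log2 fold change was -0.50 ± 0.11 (adjusted p = 0.00136; 0.0529 without the HFD groups). UDP-glucose dehydrogenase (Ugdh) was -0.40 ± 0.095 against 1.40 at 0D, and the epoxide hydrolase Ephx1 -0.39 ± 0.094 against 0.66, both calls being lost without the HFD groups (adjusted p = 0.0774 and 0.0690). Gpx2, a glutathione peroxidase, was among the 2 higher members (1.59 ± 0.38; adjusted p = 0.0733 without the HFD groups), and Nqo1, the quinone reductase, stood at 0.00 ± 0.15 (adjusted p = 0.997). Of 14 targets of the drug-sensing receptors CAR and PXR, 1 was higher and 7 lower. Cyp2c55, a cytochrome P450, was -1.16 ± 0.25 against 1.79 at 0D. It was 36.6 to 97.0 CPM in HFD and 16.8 to 32.2 CPM in DDC+HFD, with no overlap. The call was lost without the HFD groups (adjusted p = 0.158).

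Some lists of hepatocyte metabolism held more genes called lower than higher, while lipid synthesis lists did not. In DDC+Cont, DDC+HFD and DDC+EtOH alone, 0, 5 and 2 bile acid synthesis genes were called lower. The counts were 0, 7 and 1 for fatty acid oxidation, 0, 5 and 1 for heme and 0, 2 and 1 for alcohol metabolism. Of all genes, 0.192%, 4.98% and 1.92% were lower there, and the interaction test called 0 members of these lists. Over all genes tested 12.5% were called higher and 11.1% lower. The fatty acid synthesis, cholesterol synthesis and hepatocyte identity lists did not exceed these shares in either direction. Of 15 fatty acid synthesis genes, 1 was higher (the desaturase Scd2) and 0 lower (median -0.23), and of 19 cholesterol synthesis genes 0 were called (median -0.07). Of 12 bile acid synthesis genes, 8 were lower and 0 higher (median -0.30): the sterol hydroxylase Cyp8b1 stood at -0.94 ± 0.27 and Cyp7b1 at -0.87 ± 0.17, the call of Cyp8b1 being lost without the HFD groups (adjusted p = 0.0526) and without the ethanol groups (0.167), while Cyp7a1, the rate-limiting enzyme, was -0.43 ± 0.28 (adjusted p = 0.277). Outside that list, the oxysterol hydroxylase Cyp39a1 was higher (0.62 ± 0.11), chosen after its values were seen. Of 21 fatty acid oxidation genes, 10 were lower and 1 higher: the thiolase Acaa2 was -0.28 ± 0.058 (adjusted p = 0.110 without the HFD groups) and the dehydrogenase Acadm -0.28 ± 0.060, while Cpt1a, the carnitine transferase, was 0.23 ± 0.074 higher, a call lost without the libraries rich in pancreatic transcripts (adjusted p = 0.184), without the HFD groups (0.255), without the ethanol groups (0.0588) and with pancreatic CPM as a term (0.0743). Of 14 heme genes, 7 were lower and 0 higher, led by the porphyrin exporter Abcg2 (111.2 to 172.7 CPM without and 67.0 to 134.2 CPM with history, log2 fold change -0.50 ± 0.082) and coproporphyrinogen oxidase, Cpox (-0.32 ± 0.067; adjusted p = 0.0924 without the HFD groups). Fech, ferrochelatase, the enzyme that DDC inhibits, stood at -0.02 ± 0.055 and Alas1, which sets the rate of hepatic heme synthesis, at 0.19 ± 0.22 (adjusted p = 0.855 and 0.565). Alas2, the red cell form, was -0.69 ± 0.12, and the other 3 red blood cell markers tested were not called. Those 4 markers had a median of -0.80 with 0 above 0, and the summed level of all 7 listed, globins included, was 72.8 to 226.8 CPM without history (median 133.7) and 29.5 to 114.6 CPM with it (median 81.6). The part of red blood cells in the lower heme genes was not tested. Of 12 alcohol metabolism genes, 5 were lower and 1 higher, including the aldehyde dehydrogenases Aldh1a1 (-0.47 ± 0.090) and Aldh2 (-0.24 ± 0.061; adjusted p = 0.0576 without the ethanol groups). At 0D 1 of 20 hepatocyte identity genes was higher and 15 were lower, beside 27.5% and 24.5% of all genes there. With history 1 was higher and 1 lower (median -0.05). The lower one was transthyretin, Ttr, at 3479 to 5117 CPM without and 2102 to 4349 CPM with history (-0.36 ± 0.074; adjusted p = 0.0582 without the HFD groups).

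The 3 second treatments share no libraries, so their own calls can be set side by side, although they come from 1 fit with a common estimate of the spread. DDC+Cont against Control 28D called 169 genes (1.2%), DDC+HFD against HFD 1677 (12%) and DDC+EtOH against EtOH 755 (5.38%). Of the 142 genes higher in the control pair, 132 were also called higher in the HFD pair and 113 in the ethanol pair. Those shared genes were 13.5% of the 978 called higher in the HFD pair and 23.3% of the 486 called higher in the ethanol pair. Of the 27 lower in the control pair (0.192%), 12 were called lower again in the HFD pair, where 4.98% of genes were lower, and 10 in the ethanol pair, where 1.92% were. All 27 kept their sign in the HFD pair, but 24 did in the ethanol pair, where 1 of the 27 was called higher. In all, 117 genes were called in each of the 3 pairs, 109 higher and 8 lower. The direct test of a difference between second treatments called 0 of 14031 genes (0%) by edgeR's quasi-likelihood test, with 895 at an unadjusted p under 0.05 and 6 called by DESeq2. The smallest adjusted p was 0.275, for Kit, the stem cell factor receptor. Across the 14031 genes, which are not independent, effects in the control and HFD pairs had a Pearson r of 0.522 and a Spearman rho of 0.459. Control and ethanol had 0.748 and 0.423, and HFD and ethanol 0.607 and 0.641, so the order of the pairs depends on the measure.

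The difference with DDC history mostly had the direction of the one at 0D, at a smaller size. At 0D 7469 of 14355 genes were called (52%; 27.5% higher and 24.5% lower), and the averaged history effect differed from the 0D effect in 5231 (36.4%; 16.8% with a higher and 19.6% with a lower value). The 0D groups share no library with the others. Of genes called higher with history, 1523 (87.0%) had also been higher at 0D, and of those called lower, 1129 (72.7%) had been lower. The 300 genes that had risen more than 8-fold at 0D had a median log2 fold change of 3.69 then and 1.13 with history, and 78% of them were called higher. The 535 that had risen 4- to 8-fold stood at 0.69 (70.1% called), and the 1274 that had risen 2- to 4-fold at 0.35 (50.1% called). Of the 76 that had fallen more than 8-fold, the median was -4.31 at 0D and -0.94 with history, and 63.2% were called lower. That share was 42.3% of the 130 that had fallen 4- to 8-fold and 37.9% of the 601 that had fallen 2- to 4-fold. It was 29.5% of the 2702 that had fallen less. Of the 1635 that had risen less than 2-fold, 16.9% were called higher (median 0.09). Over all genes 12.5% were called higher and 11.1% lower. These bins were set by the 0D estimate itself, which can enlarge their 0D medians. Of genes higher with history, 1070 were below their 0D effect by the test and 32 above it. Of genes lower with history, 707 had a less negative effect than at 0D and 68 a more negative one.

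**Figure D5:**
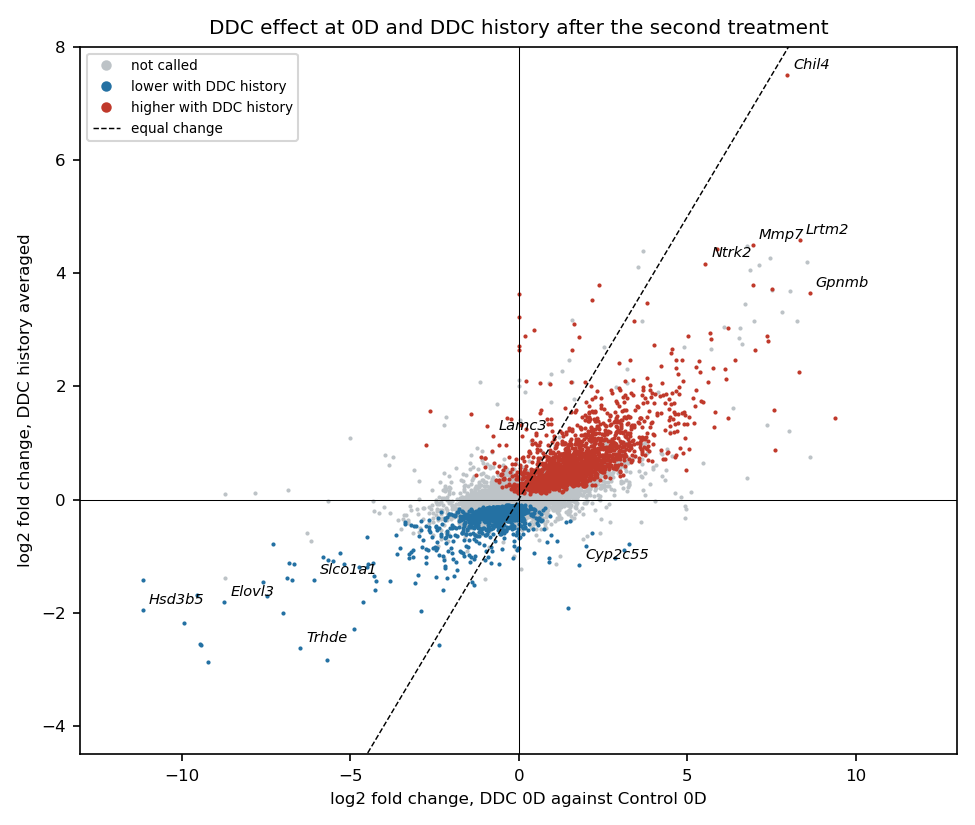
Each point is a gene, with its log2 fold change at 0D on the x axis and with DDC history, averaged over second treatments, on the y axis; red and blue mark genes called higher and lower with history, and the dashed line equal change. Most called genes lie between the x axis and the dashed line, while Cyp2c55 (1.79 at 0D, -1.16 with history) and Lamc3 (-0.77 at 0D, 2.17-fold higher with history) have opposite signs.

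Opposite calls were found in 44 genes. The difference passed the test in each, which calls in opposite directions nearly fix in advance. Such calls were rarer than the background. Of 3744 genes higher at 0D, 0.96% were called lower with history, beside 11.1% of all genes. Of 3509 genes lower at 0D, 0.23% were called higher, beside 12.5% of all genes. In 36 a rise at 0D became a decrease, among them Cyp2c55, Cyp2a5 (2.17 at 0D, -0.59 ± 0.16 with history), Ugdh, Ephx1, Postn and the ferritin light chain Ftl1 (0.37 and -0.25 ± 0.069). The calls with history were lost without the HFD groups for Cyp2a5 (adjusted p = 0.108) and Ftl1 (0.149). Cyp2a5 has a near-identical copy in Cyp2a4, so its value is uncertain. In 8 a decrease at 0D became a rise. Ikzf4, an Ikaros family transcription factor, had the widest difference (-2.74 at 0D, 0.97 ± 0.33 with history), but it was at or below 0.802 CPM without history and its call was lost under 8 of 46 other settings. Lamc3, the laminin gamma 3 chain, was 2.56 to 5.85 CPM without history (median 3.48) and 3.03 to 12.3 CPM with it (median 7.68), or 2.17-fold higher (adjusted p = 2.86e-06), where DDC 0D stood at -0.77. Libraries overlapped overall and were separate within 1 second treatment. Ikzf4 and Lamc3 were picked after their values were seen.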

How the data were processed

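Messenger RNA of whole liver was sequenced from TruSeq libraries, per the labels' protocols. The deposited values are the authors' raw read counts per gene symbol, with 24499 symbols and 5 closing tallies that were kept out of library sizes. The build mm10, GSNAP and DESeq2 1.12.3 are named, with no role, in the submitters' processing notes. No source used here gives the counter, its annotation or whether it used strand. Multi-mapped reads were tallied apart, so near-identical copies (Cyp4a12a and Cyp4a12b, Cyp2a, Cyp2c, Chil3 and Chil4) have uncertain values. Between 41.0% and 49.7% of tallied reads were counted on genes.

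Groups came from the labels. Counts were fitted in edgeR 4.0.16 (R 4.3.3) with TMM factors, the filterByExpr default by group, robust quasi-likelihood dispersion and two-sided F tests, adjusted by Benjamini-Hochberg. The main model had second treatment and DDC history as additive terms (32 libraries). A fit with 6 groups gave the effect in each second treatment and the interaction test, and a fit with 8 groups (40 libraries, 14355 genes) gave the 0D effect and the test of the history effect against it. CPM used TMM-scaled totals, and plots log2(CPM + 0.1). Symbols were located through GENCODE vM21 (13632 of the tested symbols matched 1 gene).

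The rule for named genes took the 15 largest rises and 15 largest falls with a mean of at least 2 CPM and the same sign in all 3 second treatments, up to 4 members of each list by adjusted p, members called against their list, the 6 smallest interaction p-values and the largest differences from 0D. The comparison, its members and the lists were chosen with earlier results of these data known. Lists are described by counts and medians and were not tested. Alternatives were RLE size factors, no filter, a stricter filter (1 CPM in 4 libraries and a mean count of 10), lane, pancreatic CPM or clock score as a term, robust estimation off, DESeq2 1.42.0, equal weights, each second treatment left out, libraries over 1000 CPM of pancreatic transcripts left out, and each library left out. Leaving out DDC+HFD replicates 32, 33 and 35 was chosen after seeing the data. The scripts were tested on simulated counts.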

Additional observations from a re-analysis of the deposited data

Results flagged for a closer look

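Among 144 combinations of group and measure (18 genes and 6 summed marker lists), 8 held a library whose gap to its nearest neighbour was large for the group's range by Dixon's test, and chance alone gives about 1 in 20. Ntrk2 was 34.1 CPM in DDC+Cont replicate 26, with the others at 10.2 to 12.4 CPM. Trem2 was 4.60 CPM in DDC+HFD replicate 32 (others 2.77 to 3.41 CPM), and the summed recruited macrophage markers of that library were 496 CPM (others 197.1 to 269.1 CPM). Ankrd1 was 2.29 CPM in DDC+EtOH replicate 42 (others 0.710 to 1.13 CPM), where Hsd3b5 was 1.15 CPM (others 0 to 0.142 CPM). Trhde was 2.66 CPM in DDC+HFD replicate 30 (others 0.292 to 1.09 CPM). Summed neutrophil markers were 65.6 CPM in Control 28D replicate 12 (others 19.4 to 28.1 CPM) and 167.4 CPM in DDC+Cont replicate 26 (others 18.5 to 52.4 CPM).

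The effect of DDC history differed from the DDC effect at 0D in 5231 genes (edgeR, quasi-likelihood test on the difference) and in 16 of the 18 genes followed here. On the log2 scale, history minus 0D was -2.16 for Epcam, -1.76 for Bicc1, -2.47 for Mmp7, -3.64 for Lrtm2, -4.43 for Gpnmb, -3.46 for Trem2, -1.72 for Col6a3, -0.69 for Pdgfra, -1.26 for Cd34 and -2.32 for Ankrd1. It was 3.79 for Trhde, 6.87 for Elovl3, 9.32 for Hsd3b5 and 4.68 for Slco1a1, whose decrease was smaller than at 0D. It was -0.68 for Gclc and -2.92 for Cyp2c55.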

How the results depend on the processing

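No paired analysis was possible because each label number occurs once and no 2 groups share one. Genes higher numbered 1529 to 1986 and genes lower 1305 to 1869 when each library was left out in turn, against 1751 and 1553; the interaction test then gave 0 to 1 genes, and the difference from 0D 4632 to 5478. Counts moved by more than 1.5 times without the HFD groups (745 higher, 297 lower) and without the ethanol groups (1078 higher, 823 lower), but not without the control-diet groups (1664 and 1441), and the cause was not tested. Without DDC+HFD replicates 32, 33 and 35, chosen after seeing the data, 957 were lower and 1190 higher. The interaction test gave 1 gene with lane as a term (Fmn1, adjusted p = 0.0312), 1 with pancreatic CPM as a term (Kit, 0.0337), 1 without DDC+EtOH replicate 38 (Raet1d, 0.0378) and 6 by DESeq2, and the cause was not tested. Under the other planned settings the counts stayed within 1.5 times, but the genes called changed more under some than others. DESeq2 shared 1734 of the 1751 higher and 1543 of the 1553 lower calls. Without the libraries rich in pancreatic transcripts 1501 of the higher and 1178 of the lower calls were kept. Without the control-diet groups 1399 and 1193 were kept. Of 189 named or separated genes followed, 90 lost their call under at least 1 setting and 0 changed sign. Depth limits genes below 1 CPM in every library without history, such as Mmp7, Ncr1 and Fbn2, whose fold depends on few counts.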
